A study of Homo sapiens with 9 samples.

Results

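Mitosis and the spindle checkpoint were examined through 44 genes whose products drive entry into mitosis, assemble the spindle, hold or release the spindle checkpoint, condense and separate chromosomes and divide the cell. They were taken by gene name from a table of 36385 gene rows, each name matched 1 row, and all 44 had enough reads to be tested in every comparison. The cells were MG-63, an established human osteosarcoma line, kept for 7 days in osteogenic medium on 3 kinds of surface, with 3 RNA sequencing libraries per surface. The surfaces were the titanium alloy Ti6Al4V alone (called bare below), Ti6Al4V+TiB2 (called TiB2) and boronized Ti6Al4V/HA (called HA), the last 2 together called the modified surfaces. All 9 libraries shared the medium, DMEM to which 100 nM dexamethasone, 50 µg/mL ascorbic acid and 10 mM beta-glycerophosphate had been added, and all carried the same batch label. The labels mark the TiB2 libraries as left out of the submitters' final analysis, and the protocol names only the bare and HA surfaces. No untreated or day 0 cells were analysed here, so each comparison is between surfaces at a single time. The series title asks how the boronized HA surface acts on osteogenic differentiation, and the comparisons below address how the mitosis genes differed between the surfaces.

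As background, a cell enters mitosis when cyclin B and the kinase CDK1 form an active pair, which the phosphatase CDC25C switches on and which the kinases PLK1 and Aurora A help to start. Microtubules from the spindle poles then attach to kinetochores, the protein plates on each centromere. Until every kinetochore is attached, the checkpoint proteins MAD2L1, BUB1B and BUB3 hold back CDC20, the activator of the anaphase promoting complex, a ubiquitin ligase that marks securin (PTTG1) and cyclin B for destruction. Most of these genes are transcribed late in the cell cycle, under the DREAM and MuvB complexes and the factors MYBL2 and FOXM1, so their messages are abundant in dividing cells and scarce in resting ones. In bulk RNA, fewer cells in mitosis and less RNA per cell cannot be told apart.

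Libraries held 58464306 to 72542556 counts, and the lowest count of any of the 44 genes in any library was 253, so counting error was small beside the spread between libraries. That spread was wider on HA than on TiB2 or bare. Over the 44 genes the highest library was a median of 1.46 times the lowest on HA, 1.34 on TiB2 and 1.18 on bare. Over all genes above 1 CPM (defined below) the same median was 1.53 on HA, 1.19 on TiB2 and 1.17 on bare. By this measure the 44 genes varied less than genes in general on HA, more on TiB2 and about equally on bare. The labels do not say whether replicates of a surface were separate cultures, and the p-values therefore describe spread among libraries that may be technical replicates. Rows in the ribosomal repeat took 6.48% of counts in bare replicate 1, 1.07% and 0.617% in bare replicates 2 and 3, and 0.0832% to 0.197% in the others; their part in the results was not tested. The labelled cell type, osteosarcoma described as epithelial-like, was checked against markers: all 10 mesenchymal markers were detected in every library (sums of 30728 to 34411 CPM, meaning counts scaled to TMM-adjusted library size, on bare, 14844 to 17336 on TiB2 and 9292 to 17520 on HA). The 8 epithelial markers summed to 2.58 to 7.42 CPM, with 0 to 4 of them at 0. T cell markers summed to 0.44 to 8.15, macrophage markers to 6.72 to 15.7 and endothelial markers to 23.7 to 52.1 CPM. Of the 8 T cell markers, 6 were at 0 in bare replicate 1 and in all HA libraries and 2 in the others, so these 4 libraries form a set apart in which genes are detected. With a term for that set, HA was in effect compared with bare replicate 1 alone. Only the effect size is therefore given, a median log2 fold change of 1.18 over the 44 genes. With the same term, TiB2 was in effect compared with bare replicates 2 and 3, and 40 of the 44 rose, where 10.7% of all genes did. The set holds all HA and no TiB2 libraries, so between HA and TiB2 the set and the surface cannot be told apart. Without bare replicate 1, 28 of the 44 rose on HA, where 1.77% of all genes did, and 40 on TiB2, where 10.1% did.

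The sum of the 44 genes was 1934, 2016 and 2026 CPM on bare, 3914, 3156 and 2957 on TiB2, and 3760, 4404 and 3870 on HA. The 6 libraries from modified surfaces thus lay above the 3 bare libraries, and the TiB2 and HA libraries overlapped. Against bare, edgeR's quasi-likelihood test with Benjamini-Hochberg adjustment over all genes called 35 of the 44 higher on HA and 0 lower, where 5.02% of all 20117 genes tested were called higher and 4.88% lower. On TiB2 it called 42 of the 44 higher and 0 lower, where 12.9% of all 20152 genes tested were called higher and 12.2% lower. The median log2 fold change of the 44 was 1.15 on HA and 0.82 on TiB2, beside medians of 0.02 and 0.00 over all genes tested. Between HA and TiB2, 0 of the 44 passed the adjusted threshold of 0.05, where 0.179% of all 20086 genes were called higher on HA and 0.453% lower. Both comparisons against bare use the same 3 bare libraries, so their values are given side by side and not as separate support.

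**Figure D1:**
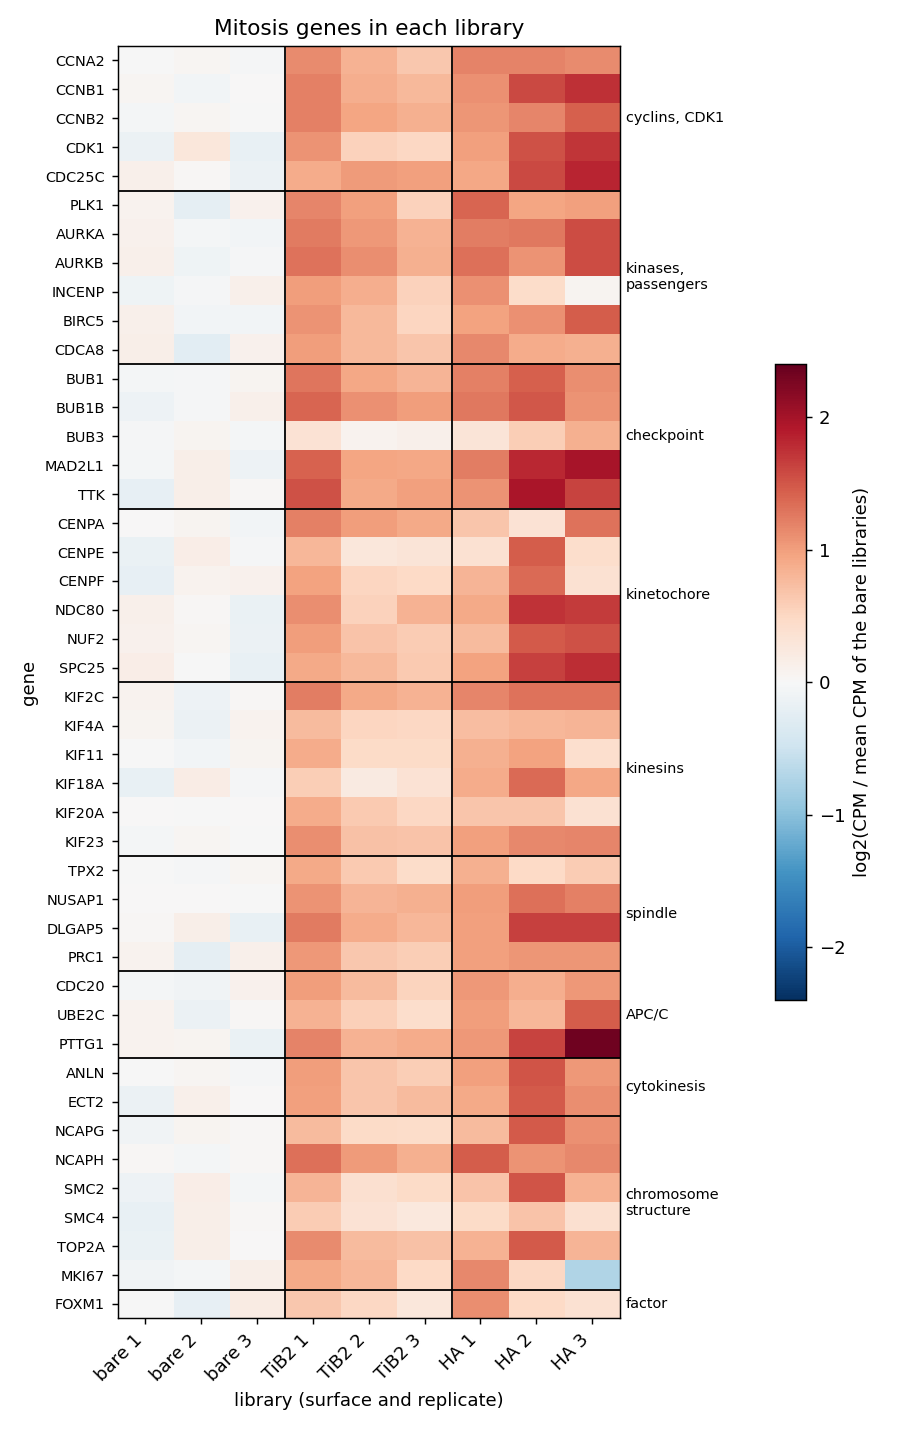
Each row is a mitosis gene, grouped by role, and each column is a library named by surface and replicate; colour gives log2 of the library's CPM over the mean CPM of the bare libraries. The bare columns stay near 0, the TiB2 and HA columns are above 0 for nearly all genes, and MKI67 in HA replicate 3 (69.8 CPM) is the deepest blue cell.

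The late cell cycle genes are known to share promoter elements, a CCAAT box and, close to the start, a cell cycle homology region (CHR) with the letters TTTGAA or, in a variant, TTTAAA. RefSeq promoters (GRCh38.p14, 250 bases before to 50 after the start) were held for 37 of the 44 genes, 46 promoters in all; AURKA, BIRC5, BUB3, FOXM1, TPX2, TTK and UBE2C had none in the table used. The stretches below are the 130 bases before the RefSeq start of 8 genes, read 5′ to 3′ on the gene's strand, with every match in capitals: CCAAT or its reverse complement ATTGG, and TTTGAA or TTTAAA or their reverse complements. These 8 were picked as examples among members that rose on at least 1 modified surface, and they do not represent the set. All 8 held a CHR of either form in the 50 bases before the start, as did 23 of the 46 promoters. AURKB, BUB1 and CCNA2, not shown, had no CHR match in their promoters. By the deposited gene coordinates, CCNB1, CCNB2, CDCA8, BUB1B and PRC1 begin inside the stretch. PLK1 and KIF20A begin before it, so their stretches lie within the gene as deposited.
CCNB1: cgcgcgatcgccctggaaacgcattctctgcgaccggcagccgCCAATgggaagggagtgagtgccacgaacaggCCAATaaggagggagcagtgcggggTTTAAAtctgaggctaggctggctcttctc
CCNB2: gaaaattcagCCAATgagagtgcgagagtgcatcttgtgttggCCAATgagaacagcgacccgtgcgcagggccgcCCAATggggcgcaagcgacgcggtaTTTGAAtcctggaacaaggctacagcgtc
PLK1: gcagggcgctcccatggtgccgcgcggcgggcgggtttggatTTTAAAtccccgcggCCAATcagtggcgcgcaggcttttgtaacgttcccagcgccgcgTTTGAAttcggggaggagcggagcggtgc
CDCA8: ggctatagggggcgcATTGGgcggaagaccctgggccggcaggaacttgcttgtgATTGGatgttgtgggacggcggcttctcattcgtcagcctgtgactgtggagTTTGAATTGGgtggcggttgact
BUB1B: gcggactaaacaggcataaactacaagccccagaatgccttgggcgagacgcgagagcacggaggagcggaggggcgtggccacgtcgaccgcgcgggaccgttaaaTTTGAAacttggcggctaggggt
KIF20A: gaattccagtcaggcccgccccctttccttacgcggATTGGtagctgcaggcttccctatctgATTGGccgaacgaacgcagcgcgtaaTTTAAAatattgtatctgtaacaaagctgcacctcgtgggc
PRC1: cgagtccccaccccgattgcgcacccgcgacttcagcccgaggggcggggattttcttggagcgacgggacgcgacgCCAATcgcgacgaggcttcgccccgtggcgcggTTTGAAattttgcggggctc
MKI67: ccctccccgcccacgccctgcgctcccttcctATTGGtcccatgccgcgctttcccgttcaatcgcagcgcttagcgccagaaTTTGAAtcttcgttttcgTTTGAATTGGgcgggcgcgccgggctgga
The CCNB1 stretch (chr5:69167020-69167149, plus strand) held 2 CCAAT boxes and a CHR variant, and that of CCNB2 (chr15:59105016-59105145, plus) held 3 CCAAT boxes and a CHR. That of PLK1 (chr16:23678759-23678888, plus) held 1 CCAAT box with both forms of the CHR, and that of KIF20A (chr5:138178982-138179111, plus) held 2 CCAAT boxes and the variant. In CDCA8 (chr1:37692386-37692515, plus) and MKI67 (chr10:128126424-128126553, minus) a CHR shares its last A with a CCAAT box in reverse, so the run of capitals holds both. PRC1 (chr15:90994536-90994665, minus) held 1 of each, and BUB1B (chr15:40160939-40161068, plus) held a CHR with no CCAAT in these letters.

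Searched on both strands over the whole promoter, CCAAT was found in 69.6% of the 46 promoters, against 34.6% of all 35116 promoters in the table. TTTGAA was found in 67.4% of them against 15.2% of all promoters, and TTTAAA in 30.4% against 12.2%. Either form of the CHR lay in the 50 bases before the start in 50.0% (23 of 46), against 4.79% of all promoters. A CCAAT box together with a CHR of either form was found in 60.9%, against 9.27%. These shares count letters in a window; no binding was measured here, and some genes contribute more than 1 promoter.

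**Figure D2:**
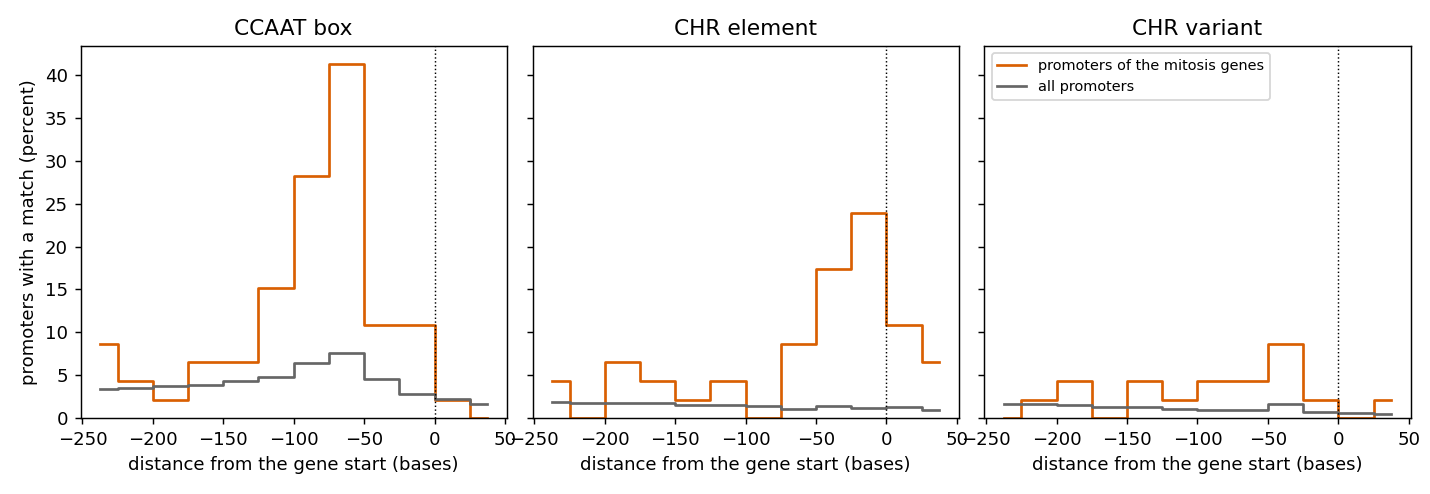
Share of promoters (percent) with a match starting in each 25-base bin, by distance from the RefSeq start in bases, for the 46 promoters of the mitosis genes (orange) and all promoters (grey). In the mitosis genes CCAAT matches pile up between 50 and 100 bases before the start and TTTGAA matches in the last 50 bases before it.

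The cyclins, CDK1 and its activator rose as a group: 5 of 5 passed on HA (median log2 fold change 1.43) and 5 of 5 on TiB2 (0.97). CCNB1 (ENSG00000134057, chr5:69167135-69178245 on GRCh38), the mitotic cyclin that activates CDK1, stood at 69.9, 64.2 and 67.7 CPM on bare, 155, 123 and 116 on TiB2 and 143, 202 and 227 on HA. All modified libraries were above all bare ones, and HA replicate 1 lay among the TiB2 libraries. The group means were 67.2 ± 2.86, 131 ± 20.6 and 191 ± 42.9 CPM (SD, n = 3), so that CCNB1 was 2.83-fold higher on HA (log2 fold change 1.5 ± 0.19 SE, edgeR adjusted p = 0.00304) and 1.95-fold higher on TiB2 (0.97 ± 0.11, edgeR adjusted p = 0.000221). CDK1 (ENSG00000170312, chr10:60778331-60794828), the kinase itself, stood at 26.6, 35.4 and 25.8 CPM on bare, 61.7, 42.7 and 41.3 on TiB2 and 57.8, 84.8 and 95.5 on HA. Bare and modified libraries did not overlap, TiB2 replicate 1 stood above the other 2 TiB2 libraries, and HA replicate 1 was the lowest on HA. CDK1 was 2.7-fold higher on HA (1.43 ± 0.22, edgeR adjusted p = 0.00582) and 1.66-fold higher on TiB2 (0.73 ± 0.17, edgeR adjusted p = 0.0128).

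CCNA2, the cyclin that acts from S phase into early mitosis, stood at 33.3, 34.9 and 32.8 CPM on bare, 73.5, 60.2 and 53.0 on TiB2 and 77.2, 76.8 and 73.8 on HA. The 3 HA libraries were close together and all above the TiB2 libraries, narrowly so for TiB2 replicate 1. CCNA2 was 2.25-fold higher on HA (1.17 ± 0.14, edgeR adjusted p = 0.00222) and 1.85-fold higher on TiB2 (0.89 ± 0.11, edgeR adjusted p = 0.000567). CDC25C, the phosphatase that removes the inhibitory phosphates from CDK1, had the lowest level per length of the 44 on bare (1.42 FPKM, against 25.8 for CCNB1). It stood at 5.52, 5.18 and 4.61 CPM on bare, 9.46, 10.4 and 10.1 on TiB2 and 9.69, 15.4 and 18.2 on HA, with all modified libraries above bare. CDC25C was 2.81-fold higher on HA (1.49 ± 0.25, edgeR adjusted p = 0.00838) and 1.96-fold higher on TiB2 (0.97 ± 0.14, edgeR adjusted p = 0.00103). CCNB2, the second B-type cyclin, ranged from 25.4 to 27.4 CPM on bare, 47.5 to 61.0 on TiB2 and 55.0 to 71.1 on HA and passed in both comparisons.

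**Figure D3:**
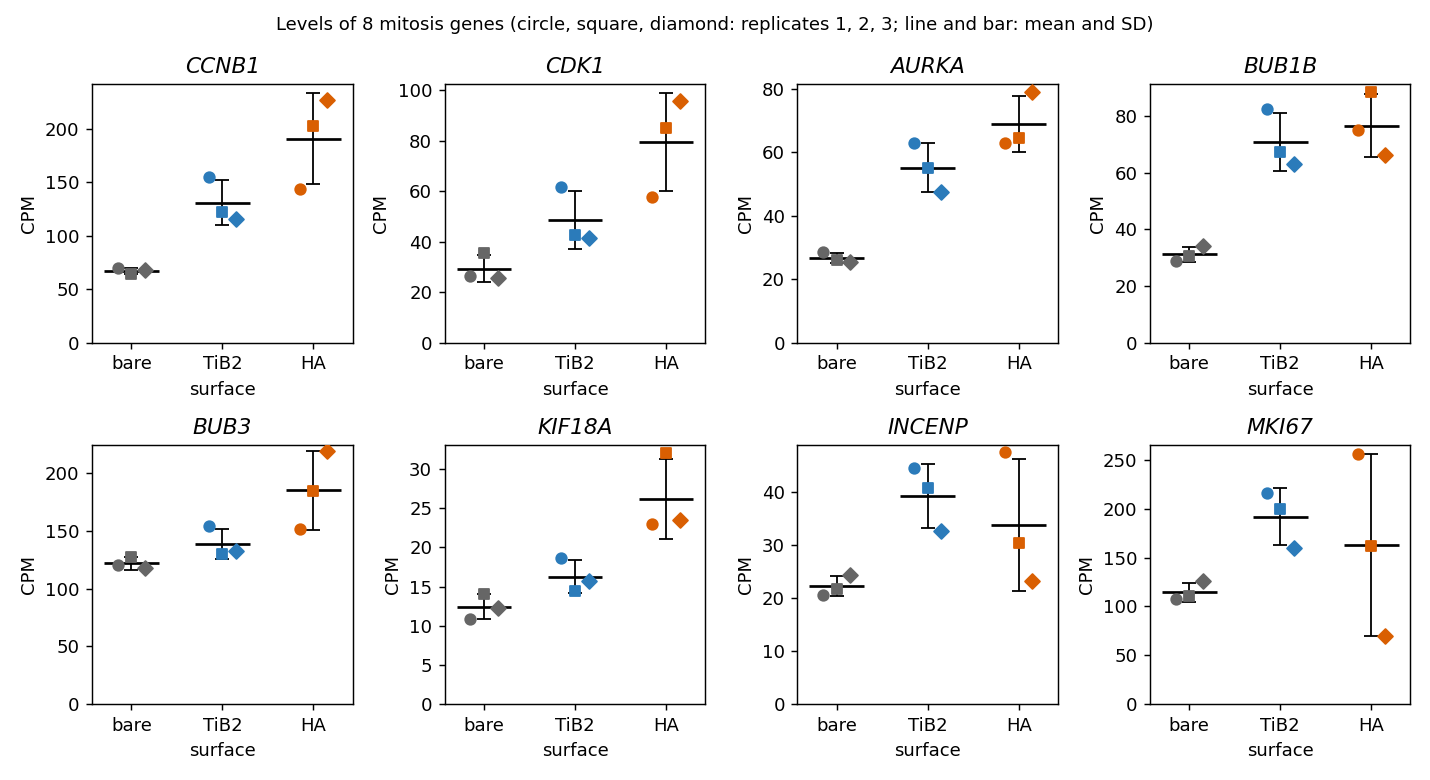
CPM of 8 genes (linear axis from 0) on each surface; circles, squares and diamonds are replicates 1, 2 and 3, the line is the mean and the bar its SD. CCNB1, CDK1, AURKA and BUB1B are clear of the bare libraries on both modified surfaces, BUB3 and KIF18A differ less on TiB2, and INCENP and MKI67 spread across the bare range on HA.

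Among the mitotic kinases and the chromosomal passenger complex, 5 of 6 rose on HA (median 1.15) and 6 of 6 on TiB2 (0.88). PLK1, a kinase needed for spindle poles and mitotic exit, stood at 42.3, 34.2 and 42.7 CPM on bare, 89.7, 78.4 and 58.2 on TiB2 and 104, 76.6 and 78.2 on HA. Bare did not overlap with the modified libraries, and HA and TiB2 overlapped each other. PLK1 was 2.17-fold higher on HA (1.12 ± 0.18, edgeR adjusted p = 0.00776) and 1.9-fold higher on TiB2 (0.93 ± 0.15, edgeR adjusted p = 0.00216). AURKA, the spindle pole kinase, stood at 28.7, 25.9 and 25.5 CPM on bare, 63.0, 55.0 and 47.4 on TiB2 and 62.9, 64.4 and 78.9 on HA. It had the smallest adjusted p of the 44 on HA (2.56-fold, log2 fold change 1.36 ± 0.16, edgeR adjusted p = 0.00189) and was 2.07-fold higher on TiB2 (1.05 ± 0.11, edgeR adjusted p = 0.000182).

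The passenger complex places AURKB, its kinase, at centromeres and later at the midzone through INCENP, BIRC5 and CDCA8. AURKB stood at 14.5, 12.3 and 12.9 CPM on bare, 32.9, 28.5 and 23.9 on TiB2 and 33.1, 28.1 and 39.2 on HA, with bare apart from both. It was 2.52-fold higher on HA (1.33 ± 0.18, edgeR adjusted p = 0.00362) and 2.15-fold higher on TiB2 (1.10 ± 0.13, edgeR adjusted p = 0.00032). BIRC5 (survivin) and CDCA8 (borealin) also passed in both comparisons, at 2.27-fold and 1.96-fold on HA. INCENP (ENSG00000149503, chr11:62123998-62153169), the scaffold that binds and activates AURKB, stood at 20.7, 21.8 and 24.3 CPM on bare, 44.6, 40.7 and 32.7 on TiB2 and 47.6, 30.4 and 23.3 on HA. HA replicate 3 lay inside the bare range while HA replicate 1 was above every other library. INCENP rose 1.77-fold on TiB2 (0.82 ± 0.12, edgeR adjusted p = 0.0013) and did not pass on HA (0.60 ± 0.26, edgeR adjusted p = 0.172). Whether INCENP differed from its partners in response was not tested.

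Of the spindle checkpoint genes, 4 of 5 rose on HA (median 1.29) and 4 of 5 on TiB2 (1.11), with BUB3 the exception on both. MAD2L1 (ENSG00000164109, chr4:120055623-120066858), the protein that binds CDC20 at the heart of the checkpoint, stood at 16.3, 18.6 and 15.5 CPM on bare, 44.7, 32.4 and 31.8 on TiB2 and 39.4, 59.1 and 66.0 on HA. Modified and bare libraries were far apart, and HA replicate 1 fell within the TiB2 range. MAD2L1 was 3.25-fold higher on HA (1.70 ± 0.21, edgeR adjusted p = 0.00272) and 2.17-fold higher on TiB2 (1.11 ± 0.14, edgeR adjusted p = 0.000552). TTK, the kinase that starts checkpoint signalling at kinetochores, stood at 15.7, 19.7 and 18.3 CPM on bare, 51.6, 33.6 and 35.3 on TiB2 and 38.0, 69.9 and 55.4 on HA. TiB2 replicate 1 and HA replicate 2 were the high libraries of their surfaces. TTK was 3.02-fold higher on HA (1.60 ± 0.23, edgeR adjusted p = 0.00441) and 2.24-fold higher on TiB2 (1.17 ± 0.17, edgeR adjusted p = 0.000978).

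BUB1B, whose protein BUBR1 binds CDC20 together with MAD2L1, stood at 28.9, 30.7 and 34.2 CPM on bare, 82.5, 67.2 and 63.0 on TiB2 and 75.0, 88.5 and 66.3 on HA. BUB1, the kinase that recruits it, stood at 24.0, 24.5 and 26.1 CPM on bare, 60.8, 47.4 and 44 on TiB2 and 57.4, 67.5 and 53.9 on HA. In both genes the 2 modified surfaces overlapped and lay well above bare. BUB1B had the largest fold of the 44 on TiB2 (2.27-fold, 1.18 ± 0.11, edgeR adjusted p = 9.84e-05) and was 2.44-fold higher on HA (1.29 ± 0.17, edgeR adjusted p = 0.00308), while BUB1 was 2.39-fold higher on HA and 2.04-fold higher on TiB2. BUB3 (ENSG00000154473, chr10:123154402-123170467), the adaptor that both of them bind and that also has roles outside mitosis, stood at 120, 128 and 117 CPM on bare, 154, 130 and 132 on TiB2 and 151, 184 and 219 on HA. The modified libraries were all above bare, TiB2 replicates 2 and 3 by little. Its log2 fold change was 0.60 ± 0.17 on HA (edgeR adjusted p = 0.0626) and 0.19 ± 0.08 on TiB2 (edgeR adjusted p = 0.12; 95% interval 0.01 to 0.37), the smallest of the 44 on TiB2.

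At centromeres and kinetochores, 3 of 6 rose on HA (median 1.09) and 6 of 6 on TiB2 (0.78). On HA the 3 that passed, NDC80, NUF2 and SPC25, belong to the NDC80 complex, which holds the microtubule end. NDC80 stood at 19.1, 17.7 and 15.5 CPM on bare, 37.5, 25.7 and 31.1 on TiB2 and 32.8, 57.8 and 56.1 on HA, and was 2.79-fold higher on HA (1.48 ± 0.23, edgeR adjusted p = 0.0061) and 1.81-fold higher on TiB2 (0.86 ± 0.14, edgeR adjusted p = 0.0023). SPC25 stood at 5.27, 4.71 and 4.17 CPM on bare, 8.8, 8.05 and 7.31 on TiB2 and 9.2, 14.7 and 16.1 on HA. Its 3 surfaces did not overlap, in the order bare, TiB2, HA, with folds against bare of 2.82 on HA (1.49 ± 0.25, edgeR adjusted p = 0.00773) and 1.71 on TiB2 (0.78 ± 0.16, edgeR adjusted p = 0.00618). NUF2 was 2.44-fold higher on HA and passed on TiB2 as well.

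The other 3 kinetochore genes passed on TiB2 and missed on HA. CENPA, the histone variant that marks the centromere, stood at 4.83, 5.03 and 4.61 CPM on bare, 11.1, 9.61 and 9.02 on TiB2 and 7.68, 6.17 and 12 on HA. Every modified library was above bare, yet HA replicate 2 was near it. CENPA rose 2.06-fold on TiB2 (1.04 ± 0.14, edgeR adjusted p = 0.00081), and its value on HA was 0.83 ± 0.26 (edgeR adjusted p = 0.0805). CENPE, the kinetochore motor that moves chromosomes to the spindle equator, stood at 17.9, 22.4 and 19.5 CPM on bare, 34.7, 24.0 and 24.6 on TiB2 and 25.8, 54.5 and 26.6 on HA. A single library, replicate 1 on TiB2 and replicate 2 on HA, carried the high value on each modified surface. CENPE rose 1.39-fold on TiB2 (0.48 ± 0.15, edgeR adjusted p = 0.0455), and its value on HA was 0.83 ± 0.29 (edgeR adjusted p = 0.103). Without HA replicate 1 it passed on HA (1.03, edgeR adjusted p = 0.0442), without HA replicate 2 its log2 fold change on HA was 0.39, and on TiB2 the call was lost in 5 of 6 fits that left out a library, all but that without TiB2 replicate 2. CENPF, a large protein of the outer kinetochore, stood at 82.9, 101 and 102 CPM on bare, 186, 136 and 133 on TiB2 and 168, 245 and 122 on HA. It rose 1.59-fold on TiB2 (0.67 ± 0.13, edgeR adjusted p = 0.00589) and stood at 0.90 ± 0.25 on HA (edgeR adjusted p = 0.0535), where it passed without HA replicate 3 (1.11, edgeR adjusted p = 0.0159).

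**Figure D4:**
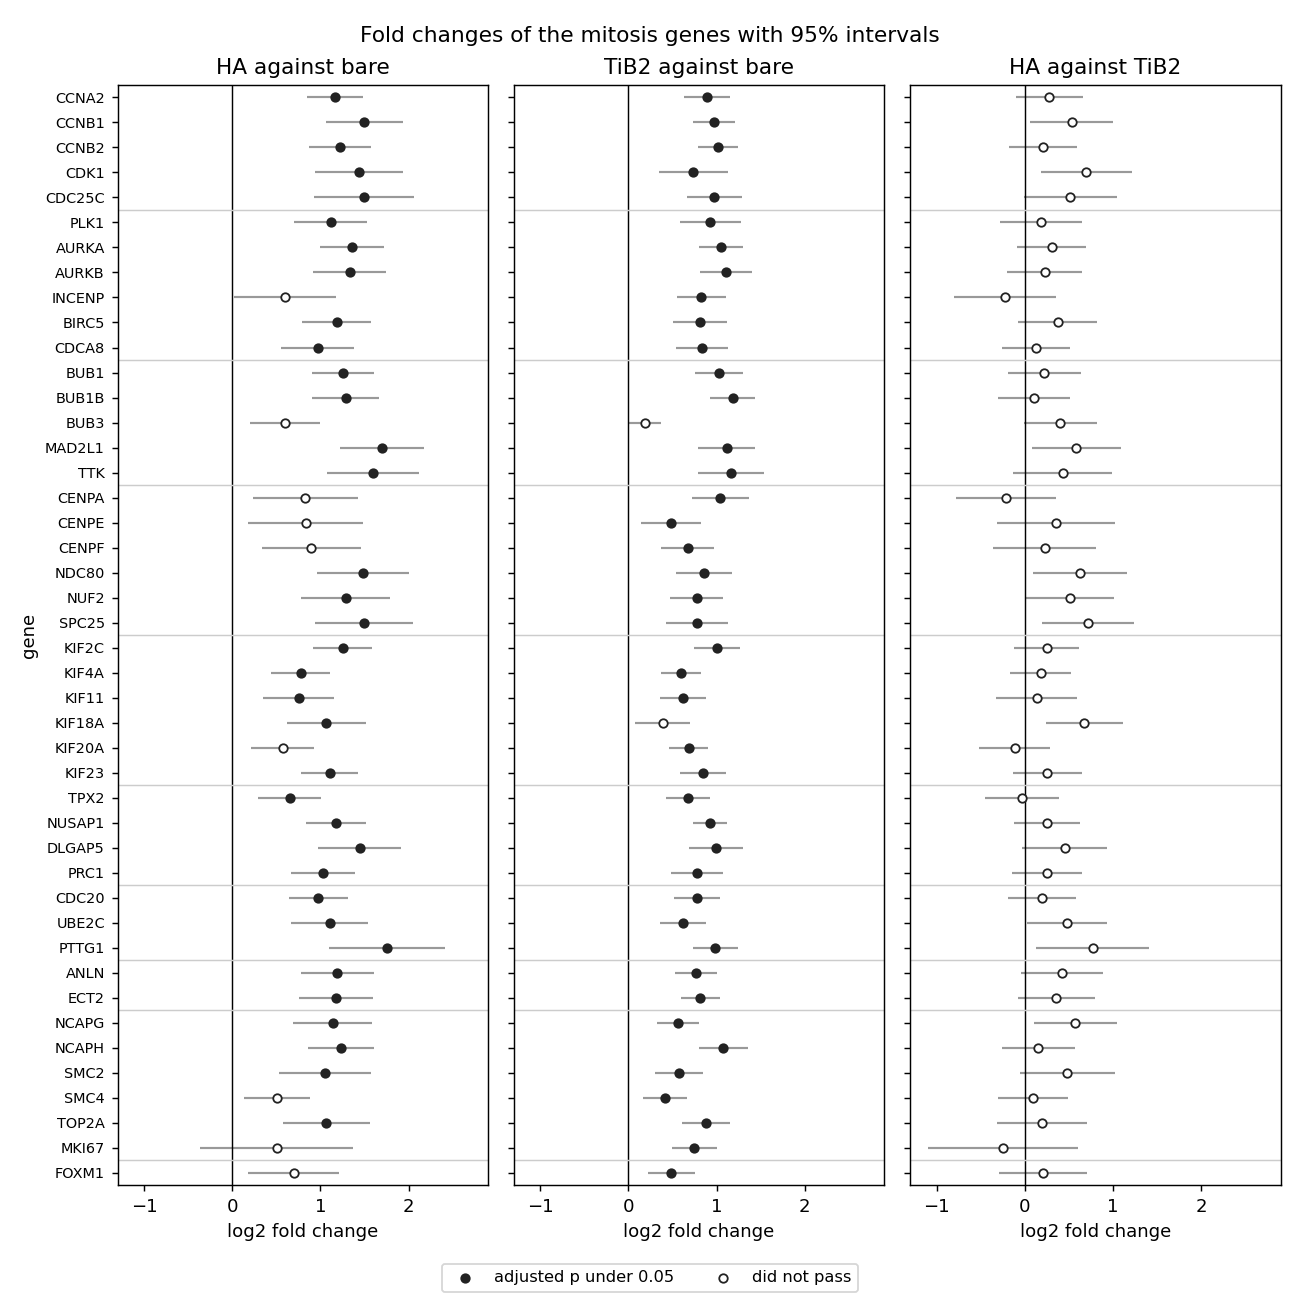
Log2 fold change of each mitosis gene with its 95% interval (edgeR) for HA against bare, TiB2 against bare and HA against TiB2; filled points passed an adjusted p of 0.05 and open points did not. All 44 points are above 0 in both panels against bare, and in the right panel 39 of 44 are above 0 with every point open.

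Of the kinesins, 5 of 6 rose on HA (median 0.92) and 5 of 6 on TiB2 (0.65), and the exception differed. KIF2C, which takes microtubules apart at the centromere, stood at 26.2, 22.5 and 25.2 CPM on bare, 57.7, 46.5 and 43.8 on TiB2 and 55.3, 61.1 and 60.4 on HA, at 2.38-fold on HA (1.25 ± 0.15, edgeR adjusted p = 0.00214) and 2.01-fold on TiB2 (1.00 ± 0.12, edgeR adjusted p = 0.000312). KIF11, the motor that pushes the spindle poles apart, stood at 41.2, 39.8 and 43.2 CPM on bare, 76.6, 57.1 and 56.8 on TiB2 and 74.8, 80.5 and 54.7 on HA. Both genes were clear of bare on the modified surfaces, KIF11 by less: 1.69-fold on HA (0.75 ± 0.18, edgeR adjusted p = 0.0331) and 1.54-fold on TiB2 (0.62 ± 0.12, edgeR adjusted p = 0.00444), and its call on HA was lost without HA replicate 2 or without any 1 of the bare replicates. KIF18A, which shortens the microtubules that reach the chromosomes, stood at 10.9, 14.1 and 12.3 CPM on bare, 18.6, 14.5 and 15.7 on TiB2 and 22.9, 32.0 and 23.5 on HA. The surfaces did not overlap, with TiB2 close above bare. KIF18A was the only member to pass on HA (2.1-fold, 1.07 ± 0.20, edgeR adjusted p = 0.012) and not on TiB2 (0.39 ± 0.14, edgeR adjusted p = 0.0705). Between HA and TiB2 it had the smallest adjusted p of the 44, 0.242 by edgeR, for a log2 difference of 0.68 (95% interval 0.24 to 1.12).

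KIF20A, a motor of the midzone needed for cytokinesis, stood at 89.3, 87.7 and 89.0 CPM on bare, 165, 136 and 125 on TiB2 and 141, 142 and 114 on HA. All modified libraries were above bare and HA replicate 3 was the lowest of them. KIF20A rose 1.61-fold on TiB2 (0.68 ± 0.10, edgeR adjusted p = 0.000991) and its value on HA, 0.57 ± 0.16, had an edgeR adjusted p of 0.0512. KIF23, a partner in the midzone, was 2.15-fold higher on HA and 1.8-fold on TiB2. KIF4A, a chromosome-bound kinesin, was 1.72-fold and 1.51-fold higher; its near-identical copy KIF4B lay at 0.579 to 1.01 CPM in all libraries, and how the authors' counting split reads between them is uncertain.

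All 4 genes for proteins that bundle or nucleate spindle microtubules rose on both surfaces, with medians of 1.10 on HA and 0.85 on TiB2. TPX2, the activator of Aurora A on the spindle, stood at 80.3, 79.5 and 84.2 CPM on bare, 153, 126 and 110 on TiB2 and 147, 113 and 125 on HA, and its folds were 1.57 on HA (0.65 ± 0.16, edgeR adjusted p = 0.0369) and 1.6 on TiB2 (0.68 ± 0.11, edgeR adjusted p = 0.00203). NUSAP1, which bundles microtubules near the chromosomes, ranged from 42.3 to 42.8 CPM on bare, 75.0 to 90.2 on TiB2 and 85.3 to 107 on HA. Its narrow bare range went with the smallest adjusted p of the 44 on TiB2 (0.92 ± 0.09, edgeR adjusted p = 8.34e-05). DLGAP5, a stabiliser of kinetochore fibres, was 2.72-fold higher on HA, and PRC1, which crosslinks the midzone, 2.04-fold.

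The anaphase promoting complex was represented by its activator, an E2 enzyme and a substrate, and 3 of 3 rose on both surfaces (medians 1.10 and 0.78). CDC20, the activator that the checkpoint restrains, stood at 36.4, 35.3 and 40.4 CPM on bare, 74.4, 63.2 and 54.3 on TiB2 and 76.9, 68.1 and 76.5 on HA. It was 1.97-fold higher on HA (0.98 ± 0.15, edgeR adjusted p = 0.00542) and 1.72-fold higher on TiB2 (0.78 ± 0.12, edgeR adjusted p = 0.00124). UBE2C, the E2 enzyme, stood at 27.8, 23.8 and 26.7 CPM on bare, 46.4, 38.7 and 35.2 on TiB2 and 52.2, 45.5 and 71.1 on HA. Neither gene overlapped between bare and modified surfaces, and UBE2C was highest in HA replicate 3 (2.15-fold on HA, 1.10 ± 0.19, edgeR adjusted p = 0.00991; 1.54-fold on TiB2, 0.62 ± 0.12, edgeR adjusted p = 0.00404).

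PTTG1 (ENSG00000164611, chr5:160421855-160428739), securin, whose destruction frees separase to split the sister chromatids, stood at 27.7, 27.4 and 23.4 CPM on bare, 59.5, 46.9 and 48.8 on TiB2 and 54.2, 80.6 and 132 on HA. HA replicate 3 was far above the other libraries, and HA replicate 1 lay within the TiB2 range. It had the largest fold of the 44 on HA, 3.38 (1.76 ± 0.29, edgeR adjusted p = 0.00782), and 1.98 on TiB2 (0.99 ± 0.11, edgeR adjusted p = 0.000282). Without HA replicate 3 its log2 fold change on HA was 1.36, still past the threshold (edgeR adjusted p = 0.00801). PTTG2, a near copy, had 2 counts in each of 2 libraries and 0 in the others and was too low to be tested.

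Both cytokinesis genes rose. ANLN, an actin-binding scaffold of the contractile ring, stood at 86.2, 88.8 and 84.3 CPM on bare, 174, 137 and 129 on TiB2 and 170, 247 and 177 on HA, at 2.28-fold on HA (1.19 ± 0.18, edgeR adjusted p = 0.00591) and 1.7-fold on TiB2 (0.77 ± 0.11, edgeR adjusted p = 0.000816). ECT2, which activates RhoA at the cleavage site, stood at 68.0, 81.5 and 75.4 CPM on bare, 149, 119 and 127 on TiB2 and 140, 207 and 163 on HA, at 2.26-fold on HA (1.17 ± 0.19, edgeR adjusted p = 0.00636) and 1.76-fold on TiB2 (0.82 ± 0.10, edgeR adjusted p = 0.000401). In both, HA replicate 2 was the high library.

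In condensin and chromosome structure, 4 of 6 rose on HA (median 1.06) and 6 of 6 on TiB2 (0.66). TOP2A, the topoisomerase that untangles sister DNA, stood at 149, 183 and 168 CPM on bare, 363, 282 and 271 on TiB2 and 297, 464 and 292 on HA, at 2.1-fold on HA (1.07 ± 0.22, edgeR adjusted p = 0.018) and 1.84-fold on TiB2 (0.88 ± 0.12, edgeR adjusted p = 0.00078). SMC2, a condensin ATPase, stood at 48.8, 59.2 and 51.8 CPM on bare, 94.2, 69.9 and 73.1 on TiB2 and 85.6, 152 and 94.8 on HA. It was 2.07-fold higher on HA (1.05 ± 0.23, edgeR adjusted p = 0.0233) and 1.49-fold higher on TiB2 (0.57 ± 0.12, edgeR adjusted p = 0.00783), and like TOP2A it was highest in HA replicate 2. SMC4, its condensin partner, stood at 129, 161 and 148 CPM on bare, 224, 186 and 173 on TiB2 and 202, 233 and 190 on HA. Its groups did not overlap bare, but the shift was small: 1.34-fold on TiB2 (0.42 ± 0.11, edgeR adjusted p = 0.0222) and a value of 0.51 ± 0.17 on HA (edgeR adjusted p = 0.0885). NCAPG and NCAPH, non-SMC subunits of the same complex, were 2.2-fold and 2.35-fold higher on HA.

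MKI67 (ENSG00000148773, chr10:128096659-128126423), which encodes the Ki-67 protein that coats mitotic chromosomes and is widely used as a mark of cycling cells, stood at 107, 111 and 126 CPM on bare, 216, 199 and 159 on TiB2 and 256, 162 and 69.8 on HA. On TiB2 all libraries were above bare, whereas on HA replicate 1 was the highest of the 9 libraries and replicate 3 the lowest. The HA libraries differed by 3.66 times, the widest span of the 44 genes within a surface. MKI67 rose 1.68-fold on TiB2 (0.75 ± 0.11, edgeR adjusted p = 0.00138) and did not pass on HA (0.50 ± 0.38, edgeR adjusted p = 0.432; 95% interval -0.36 to 1.37). Leaving out 1 HA library moved that value from 0.02 (without replicate 1) to 0.87 (without replicate 3, edgeR adjusted p = 0.0445). FOXM1, a factor that activates many genes of this set, stood at 66.1, 57.9 and 75.9 CPM on bare, 105, 94.0 and 80.5 on TiB2 and 145, 93.1 and 86.3 on HA. Modified libraries were above bare by a small margin; FOXM1 rose 1.4-fold on TiB2 (0.49 ± 0.12, edgeR adjusted p = 0.0161) and its value on HA was 0.70 ± 0.23 (edgeR adjusted p = 0.0867).

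Counted over the set, every HA library was above every bare library in 42 of the 44 genes, all but INCENP and MKI67, where 17% of all genes separated that way in this comparison. Every TiB2 library was above every bare library in 44 of 44, against 20.7% of all genes. A fold of at least 2 was reached by 30 members on HA, against 6.34% of all genes, and by 10 on TiB2, against 5.63%. Of the 44, 34 passed on both surfaces, KIF18A on HA alone, 8 on TiB2 alone and BUB3 on neither. At an unadjusted p under 0.05, 43 members passed on HA, against 27.3% of all genes, and 44 on TiB2, against 36.7%. The number that passed on HA moved with single libraries, as did the share of all genes called higher. Without bare replicate 3 it was 23 (1.33% of all genes), with CDC25C, CDCA8, KIF4A, KIF11, KIF18A, NCAPG, NUF2, SMC2, SPC25, TOP2A, TPX2 and UBE2C lost. Without bare replicate 2 it was also 23 (1.31%), with CDC20, PLK1 and PRC1 lost in place of CDC25C, KIF18A and SPC25. Without bare replicate 1, KIF4A, KIF11, KIF18A, NCAPG, SMC2, TOP2A and TPX2 were lost. It was 38 without HA replicate 1 (10.8%) or HA replicate 3 (4.50%), and 34 without HA replicate 2 (2.68%). On TiB2 it stayed between 39 and 42 (9.06% to 10.1% of all genes), with CDK1 lost without bare replicate 3, FOXM1 without TiB2 replicate 1 or bare replicate 2, and SMC4 without TiB2 replicate 1, bare replicate 1 or bare replicate 3.

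Between HA and TiB2, edgeR called 0 of the 44 after adjustment and 10 at an unadjusted p under 0.05, where 12% of all genes had such a p; DESeq2 called 0 after adjustment and 12 unadjusted. The 10 were CCNB1, CDK1, MAD2L1, NDC80, NUF2, SPC25, KIF18A, UBE2C, PTTG1 and NCAPG, all with the HA mean above the TiB2 mean. The median log2 difference of the 44 was 0.26 towards HA (0.02 over all genes). Its highest values were PTTG1 (0.77, 95% interval 0.13 to 1.41), SPC25 (0.72, 0.20 to 1.24) and CDK1 (0.70, 0.18 to 1.22), and its lowest were MKI67 (-0.24, -1.09 to 0.60), INCENP (-0.23, -0.81 to 0.35) and CENPA (-0.22, -0.78 to 0.35). In 12 genes the interval still held a 2-fold higher level on HA, and in MKI67 it held a 2-fold lower one, so differences of that size were not resolved by these 6 libraries. A fold of at least 2 was reached by 0 of the 44, against 3.58% of all genes. All HA libraries were above all TiB2 libraries in 4 genes, CCNA2, SPC25, KIF18A and NCAPG, against 8.7% of all genes. Without HA replicate 1, 8 genes passed (CCNB1, CDC25C, CDK1, MAD2L1, NDC80, NUF2, PTTG1 and SPC25), and leaving out any other library gave 0. In the fit without HA replicate 1 the calls over all genes grew as well, from 36 to 560 higher (0.179% to 2.67%) and from 91 to 664 lower.

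Replicates of a surface also differed in an ordered way across the 44 genes. TiB2 replicate 1 was the highest TiB2 library in 43 of 44, against 40.6% of all genes above 1 CPM. TiB2 replicate 3 was the lowest in 34, and the share of all genes lowest there was not computed. On HA, replicates 1, 2 and 3 were the highest library in 9, 18 and 17 genes, against 32.2%, 25.6% and 42.2% of all genes above 1 CPM. Across the 44 genes, log2 of HA replicate 3 over replicate 2 fell with transcript length (Pearson r = -0.81, Spearman rho = -0.73), and the same held more weakly over 12945 genes (-0.48 and -0.54). Log2 of HA replicate 2 over replicate 1 fell with GC content (r = -0.78, rho = -0.73; -0.64 and -0.66 over 12945 genes). These correlations run across genes of the same libraries, which are not independent, and are given as descriptions.

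**Figure D5:**
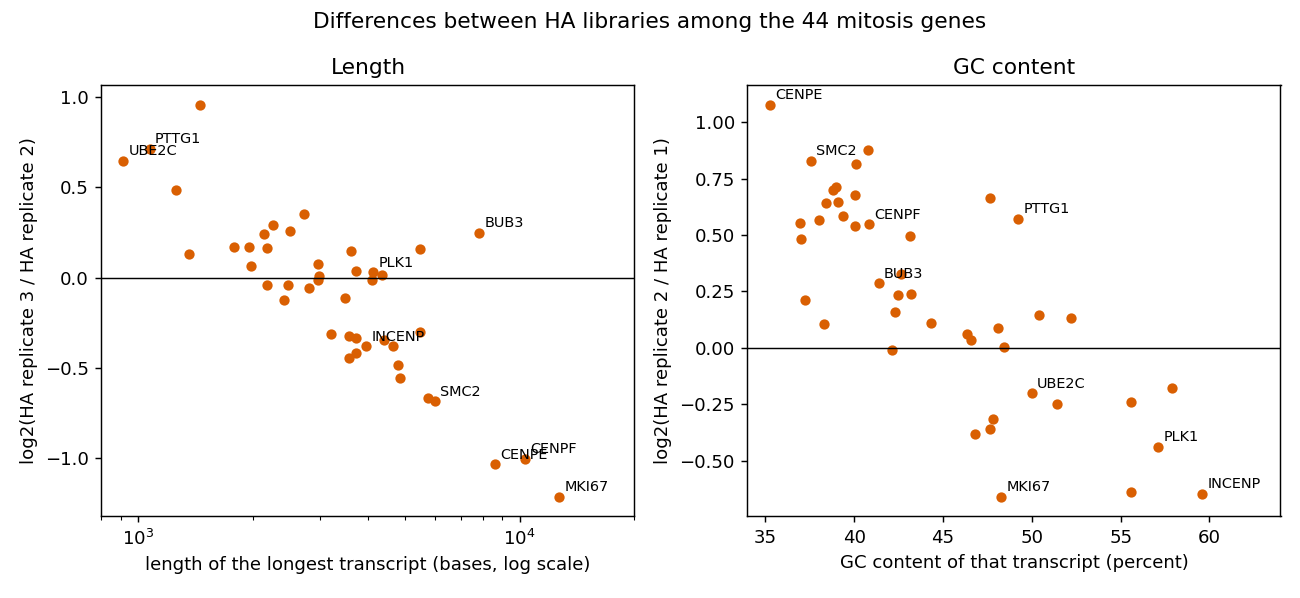
Each point is a mitosis gene: left, log2 of HA replicate 3 over HA replicate 2 against the length of its longest transcript (bases, log scale); right, log2 of HA replicate 2 over HA replicate 1 against GC content (percent). Short PTTG1 and UBE2C are above 0 and long MKI67, CENPF and CENPE near -1 on the left; low-GC CENPE and SMC2 are high and GC-rich INCENP low on the right.

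Among members, the 5 shortest transcripts (UBE2C, PTTG1, AURKB, SPC25 and CENPA) had HA replicate 3 at 1.09 to 1.94 times replicate 2, and the 5 longest (SMC2, BUB3, CENPE, CENPF and MKI67) at 0.431 to 1.19 times. The 5 of lowest GC content (CENPE, CDK1, KIF18A, SMC4 and SMC2) had HA replicate 2 at 1.16 to 2.11 times replicate 1, and the 5 of highest (AURKB, FOXM1, PLK1, CDC20 and INCENP) at 0.638 to 0.885 times. Members that missed on HA stand at these ends, namely BUB3, CENPA, CENPE, CENPF, FOXM1, INCENP, MKI67 and SMC4. So do members that passed on HA, namely UBE2C, PTTG1, AURKB, SPC25, SMC2, CDK1, KIF18A, PLK1 and CDC20. In all, 9 of the 44 missed on HA and 35 passed, so the missed members stood at these ends in the larger share. KIF20A was the only missed member away from them. The part of length and GC content in the missed calls was not tested beyond the offset below. The mean log2 fold change on HA also fell with length across the 44 (r = -0.52, against -0.23 over 12945 genes), and that on TiB2 likewise (r = -0.40 against -0.05). With an offset for GC content and length fitted in each library, 42 of 44 passed on HA, all but CENPA and MKI67, and 44 of 44 on TiB2, with medians of 0.99 and 0.82. In the same fits the share of all genes called higher was 9.83% on HA and 14.95% on TiB2, against 5.02% and 12.9% with no offset, so the calls grew over all genes too.

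The wider pathway was described by further lists of genes that are not among the 44. Of 16 genes of CDK1 control and mitotic entry, 10 rose and 0 fell on HA and 13 rose and 0 fell on TiB2, among them CDKN3, a phosphatase acting on CDKs (1.63 on HA, 1.06 on TiB2), PBK (1.62 and 0.98) and MELK (1.34 and 0.84), both mitotic kinases. Of 36 kinetochore genes, 20 rose and 0 fell on HA and 22 rose and 1 fell on TiB2, with TRIP13, the ATPase that disassembles the checkpoint complex, at 1.43 and 0.97. Of 25 kinesin and spindle genes, 19 rose on HA and 21 on TiB2 with 0 lower, with CKAP2L at 1.57 and 1.17. Of 9 cytokinesis genes, 6 rose on each surface with 0 lower, with SHCBP1 at 1.18 and 0.76. Of 18 subunits and regulators of the anaphase promoting complex, 0 passed on HA (median 0.37, 17 of 18 above 0) and 4 rose and 0 fell on TiB2 (median 0.04, 11 above 0), beside 5.02% and 12.9% of all genes called higher; whether they differed from CDC20, UBE2C and PTTG1 was not tested. Condensin and cohesin genes outside the set gave 2 of 15 higher and 0 lower on HA (median 0.19). On TiB2 they gave 6 higher and 2 lower (median 0.08). Of all genes, 5.02% were called higher and 4.88% lower on HA, and 12.9% higher and 12.2% lower on TiB2. In 26 S phase genes, listed for comparison, 22 rose on HA (median 1.03) and 24 on TiB2 (0.71), with 0 lower. In all of these lists 0 genes passed between HA and TiB2, where 0.179% of all genes were called higher on HA and 0.453% lower.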

How the data were processed

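Gene expression was measured by RNA sequencing of total RNA in 9 libraries of MG-63 cells, 3 on each surface, and groups and replicate numbers were taken from the sample titles. The authors deposited raw counts per gene and FPKM values (fragments scaled to transcript length and library depth) in the same table. Per the submitters' processing notes, the build was GRCh38 and the tools were featureCounts 2.0.1, StringTie 2.1.4, HISAT2 2.2.1, cutadapt 2.10 and limma, with no roles stated. The strand setting, the handling of reads with several matches and the annotation release were not given in the sources used here. FPKM was used for levels per length and for limma on log2(FPKM + 1). All 9 libraries had 58464306 to 72542556 counts.

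The counts as deposited were tested with edgeR 4.0.16 (R 4.3.3; TMM, filterByExpr, glmQLFit and glmQLFTest, two-sided), each comparison fitted on its own 6 libraries, with Benjamini-Hochberg adjustment over all genes tested and a threshold of 0.05. Intervals are 95% from the same fits. The 44 genes and the further lists were chosen with earlier results of these data known. Values in every library are given for the main members of each role, for the 3 largest and 3 smallest changes in each comparison and for each gene not called on HA; of the further lists, up to 3 genes with the largest change are named. Alternatives were DESeq2 1.42.0, limma 3.58.1 on FPKM, other scalings and filters, all 9 libraries in one fit, replicate block, GC and length offset, a term for library set, and leaving out each library. Transcript length and GC content came from GENCODE 29, which held 94.66% of the table's gene identifiers and all 44 members. Promoters came from RefSeq (GRCh38.p14). The test was also run on simulated counts in which 100 genes were changed at each fold. For HA against bare over 20117 genes, it recovered 22% of 2-fold and 71% of 4-fold changes, with 12.26% of calls false. For TiB2 against bare over 20152 genes it recovered 65% and 86%, with 13.71% false. For HA against TiB2 over 20086 genes it recovered 19% and 83%, with 4.67% false. Against bare, far more genes were called in the real data than were changed here, so these shares need not hold for the real calls. The changed genes could also have far fewer counts than any of the 44, so the recovered shares need not hold for the 44.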

Additional observations from a re-analysis of the deposited data

How the results depend on the processing

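Against bare, no fold change of the 44 genes changed sign under any alternative, and 0 members were called lower. On HA, where 35 members and 5.02% of all genes rose, DESeq2 called 42 (9.32% of all genes), limma on log2(FPKM + 1) 35 (4.62%; median log2 fold change 1.04 in place of 1.15), all 9 libraries in one fit 41 (8.77%), no filter 32 (1.56%) and the GC and length offset 42 (9.83%; median 0.99). With a term for library set, which left bare replicate 1 as the only bare library set against HA, the median log2 fold change was 1.18. Leaving out 1 library gave 23 to 38 members on HA (1.31% to 10.8% of all genes), with 23 without bare replicate 2 or bare replicate 3. On TiB2, where 42 rose, the alternatives gave 33 (all 9 libraries in one fit, 4.79% of all genes) to 44 (GC and length offset, 14.95%), and leaving out 1 library 39 to 42. Between HA and TiB2, leaving out 1 library gave 0 to 8 members, with 8 without HA replicate 1 (2.67% of all genes). With the replicate number as a block, 33 members rose on HA (3.17% of all genes), 40 on TiB2 (9.09%) and 0 differed between HA and TiB2 (medians 1.14, 0.81 and 0.27). Deviations of same-numbered libraries correlated between -0.067 and 0.043, so the numbers were read as names only.

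Between HA and TiB2, 12 of 704 refitted values changed sign, none of them past the threshold, and the cause was not tested. With the GC and length offset, KIF11 was -0.0015 and SMC4 -0.041. Over the fits that left out 1 library, the log2 difference ran from -0.19 to 6.6e-05 for KIF20A, -0.14 to 0.10 for TPX2, -0.068 to 0.34 for FOXM1, -0.016 to 0.22 for BUB1B, -0.095 to 0.54 for CENPE, -0.072 to 0.43 for CENPF, -0.0036 to 0.19 for SMC4, -0.065 to 0.33 for TOP2A and -0.74 to 0.11 for MKI67. TPX2 was 0.056 without HA replicate 2.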

Other observations

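A list of 12 genes joined CDK inhibitors with RB1, BTG1, BTG2, CCNG2 and GAS1. Of the 12 tested on HA, 3 fell and 0 rose, where 4.88% of all genes fell and 5.02% rose. Of 10 tested on TiB2, 3 fell and 1 rose, where 12.2% fell and 12.9% rose. The list as a whole was mixed, with 7 of 12 above 0 and a median log2 fold change of 0.05 on HA, and 4 of 10 above 0 and a median of -0.06 on TiB2. The 3 that fell on HA were GAS1, CDKN2C and CDKN1B. GAS1, a gene known from growth-arrested cells, stood at 20.8, 32.4 and 36.1 CPM on bare, 10.5, 8.47 and 7.24 on TiB2 and 4.06, 4.49 and 5.06 on HA, without overlap between surfaces, and fell by 2.72 on the log2 scale on HA and by 1.77 on TiB2. CDKN2C, an inhibitor of CDK4 and CDK6, stood at 59.8, 65.0 and 65.8 CPM on bare, 31.1, 24.5 and 24.1 on TiB2 and 29.2, 27.9 and 38.5 on HA, and fell by 1.00 and 1.25. CDKN1B (p27) fell by 0.59 on HA and by 0.45 on TiB2. CDKN1A (p21) and RB1 did not pass on either surface, with log2 fold changes of 0.42 and 0.06 on HA and -0.08 and 0.18 on TiB2.

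Of 12 genes of the DREAM and MuvB complexes, 2 rose on HA and 2 on TiB2, with 0 lower, beside 5.02% and 12.9% of all genes called higher, and the medians were 0.28 and 0.09. The 2 that rose on both were MYBL2 and LIN9. MYBL2, the MYB protein that joins MuvB to activate late cell cycle genes, stood at 31.3, 29.6 and 35.1 CPM on bare, 78.3, 67.3 and 54.7 on TiB2 and 96.0, 72.6 and 77.0 on HA, at log2 fold changes of 1.35 and 1.06. LIN9, a core subunit of MuvB, was at 1.15 and 0.59. E2F4, a DREAM subunit known for repression in resting cells, did not pass (0.31 on HA and 0.26 on TiB2).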
